A study of Mus musculus with 18 samples.

Results

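The genes described are those that encode the mouse MHC class II chains and the proteins that load and transcribe them. They were chosen by symbol, through the Ensembl identifiers of the count table, and 10 of its 54232 genes were members. These were the classical chains H2-Aa, H2-Ab1 and H2-Eb1, the peptide editor chains H2-DMa, H2-DMb1, H2-DMb2, H2-Oa and H2-Ob, the invariant chain Cd74 and the transactivator Ciita. All 10 passed the filter on low counts. They were read in 18 RNA-seq libraries of dendritic cells (DCs) from CD11a KO mice of the C57BL/6J strain, which lack the alpha subunit, encoded by Itgal, of the leukocyte integrin LFA-1. The libraries formed 6 groups of 3, which were CD11b+, CD103+ and double-positive (DP) DCs of the small intestinal lamina propria (LP) and the same 3 subsets of the intestinal lymph node (mLN). All groups carried the deletion, and no wild-type library was used here. The sources used here give neither age nor the number of animals per library. The gate that the labels state for LP DCs asked for CD64-negative cells with CD11c and a high surface level of class II protein. The LP cells were therefore chosen in part by a product of these genes, and no source used here gives the gate for the mLN cells.

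Class II molecules are alpha and beta chain pairs that show peptides from endosomes to CD4 T cells, and DCs are among the cells that carry most of them. New chains assemble on the invariant chain, proteases trim it to a short fragment in the groove, DM exchanges this fragment for antigenic peptide, and DO restrains DM. Transcription of nearly all of these genes depends on Ciita, which does not bind DNA itself but docks on the RFX, CREB and NF-Y factors assembled over a conserved promoter module.

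The 8 H2 genes lie on chromosome 17 of GRCm38, between 34092340 (the start of H2-Oa) and 34316674 (the end of H2-Eb1). Ciita and Cd74 lie on other chromosomes. RefSeq promoter windows of GRCm38.p6, from 250 bases before to 50 bases after a start site, were at hand for 7 of the 10 members, and H2-Ab1, Cd74 and Ciita had none. Since the members share a transactivator that acts through the promoter, the stretches that hold letters like those of the X and Y boxes of class II promoters are shown, from 15 bases before the first match to the base before the start site. The matches are in capitals, AACNNATG first and GATTGG second, and these letters were chosen after the windows had been read. H2-Eb2, a neighbouring class II beta chain gene that is no member, is shown beside them because its RNA moved the other way. All 5 stretches are on the plus strand.
H2-Eb1 (chr17:34305763-34305866): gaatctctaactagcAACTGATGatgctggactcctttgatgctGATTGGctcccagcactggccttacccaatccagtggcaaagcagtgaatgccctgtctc
H2-Eb2 (chr17:34325530-34325674): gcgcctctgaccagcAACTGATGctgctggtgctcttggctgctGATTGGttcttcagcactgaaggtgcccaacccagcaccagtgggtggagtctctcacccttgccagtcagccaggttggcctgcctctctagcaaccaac
H2-DMb1 (chr17:34153084-34153190): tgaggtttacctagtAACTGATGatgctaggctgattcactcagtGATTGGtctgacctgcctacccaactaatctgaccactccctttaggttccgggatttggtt
H2-DMb2 (chr17:34145113-34145248): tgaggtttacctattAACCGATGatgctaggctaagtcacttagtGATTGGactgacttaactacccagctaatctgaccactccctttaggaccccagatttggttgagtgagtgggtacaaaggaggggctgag
H2-Ob (chr17:34238805-34238904): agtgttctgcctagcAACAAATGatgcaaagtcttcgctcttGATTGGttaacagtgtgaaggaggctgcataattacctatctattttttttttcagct

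The first match began 89 bases before the start site in H2-Eb1, 130 in H2-Eb2, 92 in H2-DMb1, 121 in H2-DMb2 and 85 in H2-Ob, and 19 to 22 bases lay between the matches. Searched on both strands, AACNNATG was in 8.86% of the 32851 windows of the table and GATTGG in 16.1%. Both in this order on the same strand, 10 to 40 bases apart, were in 32 windows (0.0974%), the 5 shown among them. Since the letters were chosen after these windows had been read, the share is no test of the 5. The windows of H2-Aa and H2-Oa and 1 of the 2 windows of H2-DMa held GATTGG alone, and the other H2-DMa window held neither set of letters. A match is a description of these letters and not of bound factor.

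Libraries held 23574292 to 46901985 counted reads. Itgal, the gene of the genotype, was read at 6.45 to 26.6 CPM (counts scaled to library size) in all 18 libraries, and without a wild-type library this level does not check the deletion. The RNAs of the sort markers ordered the subsets within each tissue as labelled. Itgae (CD103) was at a mean of 5.97 CPM in mLN CD11b+ DCs, 35.4 in mLN CD103+ and 46.1 in mLN DP, all below the 168 of LP CD11b+ DCs. Zbtb46, a transcription factor of classical DCs, was at 161 to 260 CPM throughout. Summed markers of other cells differed between the tissues. The 12 T cell genes summed to 11.3 to 50.7 CPM in LP and 816 to 1245 in mLN libraries, the 9 B cell genes to 13.1 to 57.2 and 40.3 to 247, the 5 ILC3 genes to 2.32 to 31.1 and 180 to 467, and the 15 DC maturation genes to 1264 to 2476 and 5405 to 33816. The 10 macrophage genes went the other way, from 599 to 2296 CPM in LP to 40.3 to 802 in mLN libraries, as did the 11 epithelial genes, from 65.0 to 847 to 27.0 to 71.5. The 6 plasma cell genes were at 255 to 1837 and 195 to 1393 CPM, and the 6 plasmacytoid DC genes at 131 to 301 and 229 to 362. Most of the plasma cell sum was Jchain, at a mean of 1477 CPM in LP and 1100 in mLN CD11b+ DCs. The median log2 fold change of the plasma cell genes, mLN over LP, was 1.14, 0.55 and 1.52 in CD11b+, CD103+ and DP DCs. Over all genes tested it was 0.03, 0.04 and 0.07. Of these markers, the B cell factor Pax5 and the maturation gene Il4i1 had no count in LP DP, the macrophage receptor Fcgr1 none in mLN CD103+ and the goblet cell mucin Muc2 none in mLN CD11b+ and CD103+ libraries. The part of these cells in the results below was not tested. Xist was read at 15.3 to 89.1 CPM in every mLN library and at no more than 0.285 CPM in any LP library, so sex and tissue cannot be told apart. Replicate 3 of mLN CD11b+ and of mLN DP also carried Ddx3y, at 58.0 and 52.1 CPM, and leaving out both changed no member's call.

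The members together took 10.3% ± 0.620 of all counts in LP CD11b+ DCs, 9.24% ± 0.302 in LP CD103+ and 10.7% ± 0.398 in LP DP (SD, n = 3 libraries here and below). In mLN DCs they took 7.19% ± 0.818, 2.11% ± 0.0155 and 5.81% ± 0.115 in the same order of subsets. Cd74 alone took 4.57% of counts in LP CD11b+ DCs and 1.24% in mLN CD103+ DCs. As CPM per kilobase of all annotated exon bases (RPKM), Cd74 stood highest in LP CD11b+ DCs at 25630, followed by H2-Ab1 at 9676, H2-Eb1 at 5879 and H2-Aa at 3523. The editor chains came next on this RPKM scale, with H2-DMb1 at 669, H2-DMb2 at 500, H2-DMa at 386 and H2-Oa at 175. Ciita at 67.0 and H2-Ob at 65.0 RPKM were lowest. Parts of this order depend on the length used. Per kilobase of coding sequence, H2-Aa (17424) stood above H2-Eb1 (13275) in the same libraries. H2-DMa (1699) then stood above H2-DMb1 (1437) and H2-DMb2 (1116), and H2-Ob (385) above H2-Oa (329). Whether fewer cells with class II RNA or less of it per cell lies behind a lower level cannot be told apart in bulk libraries.

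**Figure D1:**
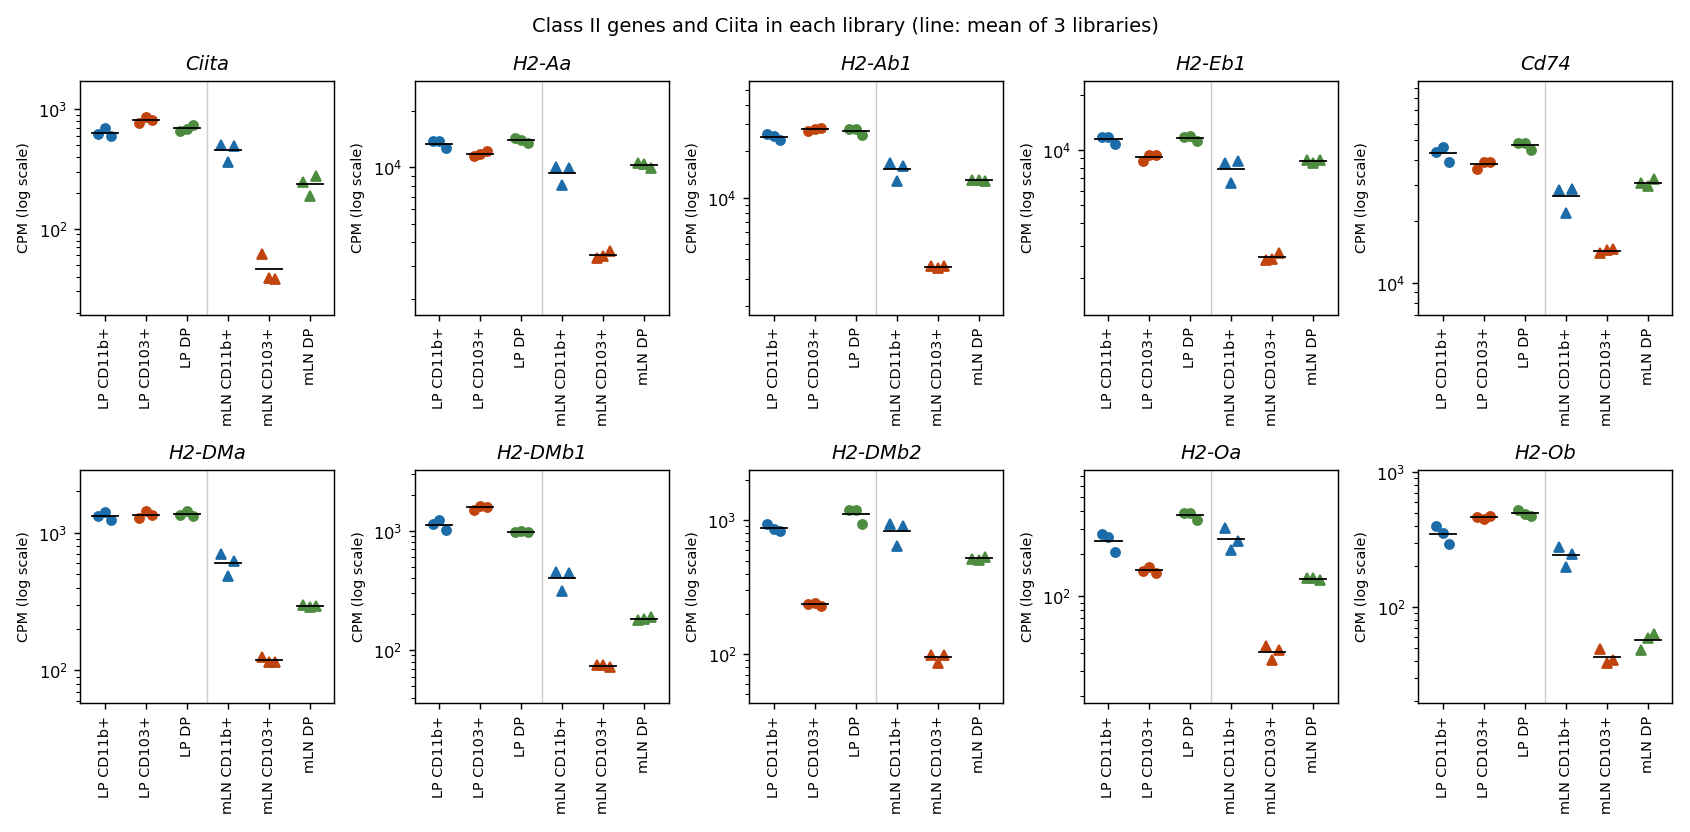
Level of each of the 10 genes in each library, in CPM on a log scale, for the 3 DC subsets of LP (circles) and mLN (triangles), with a line at the mean of 3 libraries. In every panel the 3 mLN CD103+ libraries hold the lowest group mean, 3.28-fold (Cd74) to 21.2-fold (H2-DMb1) below the highest group.

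The number of members called lower in mLN than in LP DCs differed between the subsets. In CD103+ DCs all 10 members were called lower, against 15.1% of the 17074 genes tested. In DP DCs 7 were called lower, against 13.6%, and in CD11b+ DCs 2 (H2-DMa and H2-DMb1), against 4.93%. No member was called higher in any of the 3 comparisons. A call was an adjusted p under 0.01 (edgeR quasi-likelihood test, Benjamini-Hochberg over all genes tested) with a fold change over 2. The median log2 fold change of the members was -2.43 in CD103+, -1.29 in DP and -0.53 in CD11b+ DCs, beside 0.04, 0.07 and 0.03 over all genes tested. Every mLN library was below every LP library for 10 members in CD103+ DCs, 10 in DP and 8 in CD11b+ DCs, where 31.5%, 31.2% and 23.1% of all genes tested had such an order.

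**Figure D2:**
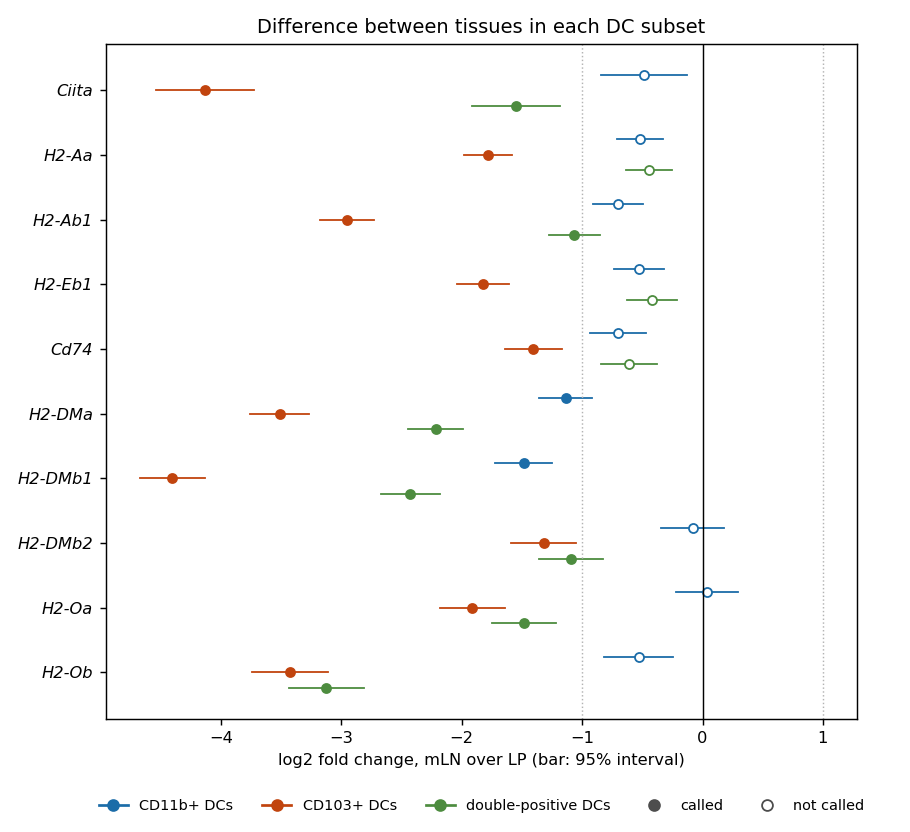
Fitted log2 fold change of mLN over LP for each member in CD11b+, CD103+ and DP DCs, with bars for the 95% interval, filled points for calls and dotted lines at a 2-fold change. The CD103+ points lie farthest left for all 10 members, from -1.32 (H2-DMb2) to -4.41 (H2-DMb1).

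Ciita, the transactivator (chromosome 16, 10480059 to 10528418), had its lowest level in mLN CD103+ DCs. It was at 626, 695 and 595 CPM in LP CD11b+ DCs and at 503, 366 and 498 CPM in mLN CD11b+ DCs. In CD103+ DCs it went from 768, 863 and 812 CPM in LP to 61.2, 39.2 and 38.4 in mLN, and in DP DCs from 663, 688 and 743 to 249, 190 and 278. The groups did not overlap in any subset. The fold change passed both limits in CD103+ DCs, where Ciita fell 17.6-fold (log2 fold change -4.14, SE 0.19, edgeR adjusted p = 1.4e-11), and in DP DCs, where it fell 2.92-fold (-1.55, SE 0.17, adjusted p = 7.8e-07). In CD11b+ DCs the log2 fold change was -0.49 (95% interval -0.84 to -0.13) and did not pass (adjusted p = 0.030). Of its exon bases, 3.45% overlap Dexi on the opposite strand, and the counting used for the DC libraries made alongside ignored strand.

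Of the classical chains, H2-Aa and H2-Ab1 are the subunits of the surface molecule I-A. H2-Ab1, the I-A beta chain, was at 25932, 25079 and 23532 CPM in LP CD11b+ DCs, 27182, 27717 and 28425 in LP CD103+ and 27862, 28048 and 25419 in LP DP. In mLN it was at 16785, 12907 and 16026 CPM in CD11b+, 3620, 3515 and 3605 in CD103+ and 13094, 12999 and 12786 in DP DCs. The LP groups thus lay close together, while in mLN the CD103+ libraries stood below the others. H2-Ab1 fell 7.76-fold in CD103+ DCs (log2 fold change -2.96, SE 0.11, edgeR adjusted p = 7.4e-13) and 2.09-fold in DP DCs (-1.06, SE 0.10, adjusted p = 8.7e-08). In CD11b+ DCs its log2 fold change of -0.71 (SE 0.10) was under the limit on fold change (adjusted p = 2.9e-05).

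H2-Aa, the I-A alpha chain, had smaller fold changes between the tissues than its partner. Its CPM went from 11503, 11774 and 12144 in LP CD103+ to 3308, 3380 and 3592 in mLN CD103+ DCs, a 3.45-fold fall (log2 fold change -1.78, SE 0.09, edgeR adjusted p = 6.2e-11). In DP DCs it was between 13551 and 14359 CPM in LP and between 9953 and 10488 in mLN, and in CD11b+ DCs between 12618 and 13770 and between 8049 and 10026. These 2 log2 fold changes, -0.44 and -0.52, had an adjusted p under the limit but a fold change under 2. H2-Eb1, the I-E beta chain, followed H2-Aa more than H2-Ab1, with log2 fold changes of -1.82 (SE 0.10) in CD103+, -0.42 (SE 0.10) in DP and -0.53 (SE 0.10) in CD11b+ DCs, of which the CD103+ value alone was called. Its alpha chain partner, annotated as the pseudogene H2-Ea-ps, was read at no more than 0.937 CPM in any library.

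The ratio of H2-Ab1 to H2-Aa, in reads per kilobase of coding sequence, showed the unequal fall of the chain pair. It was 1.79 in LP CD11b+, 2.27 in LP CD103+ and 1.87 in LP DP DCs, and 1.58, 1.01 and 1.22 in the mLN groups in the same order. In the CD103+ libraries it was 2.28, 2.27 and 2.26 in LP and 1.06, 1.00 and 0.969 in mLN. The LP and mLN ratios did not overlap in any subset. The ratio compares reads per length and not protein.

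Cd74, the invariant chain (chromosome 18, 60803848 to 60812652), had the narrowest range of the members, 3.28-fold between the highest and the lowest group. It was at 43801, 46352 and 38948 CPM in LP CD11b+ and at 28549, 21960 and 28926 in mLN CD11b+ DCs. LP CD103+ DCs held 36063, 39137 and 38963 CPM and mLN CD103+ DCs 13995, 14523 and 14587, a 2.65-fold fall (log2 fold change -1.41, SE 0.11, edgeR adjusted p = 1.2e-08). In DP DCs it went from 48517, 48135 and 44706 to 30630, 29857 and 32099 CPM. The DP and CD11b+ libraries did not overlap between the tissues either, but their log2 fold changes, -0.61 (SE 0.11) and -0.70 (SE 0.11), were under the limit on fold change.

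The DM chains, which exchange the invariant chain fragment for peptide, held the largest fall of the members, that of H2-DMb1 in CD103+ DCs. H2-DMa, the alpha chain, was at 1281, 1429 and 1354 CPM in LP CD103+ and 125, 115 and 115 in mLN CD103+ DCs. In DP DCs it went from 1354, 1435 and 1316 to 300, 289 and 294 CPM, and in CD11b+ DCs from 1334, 1409 and 1248 to 706, 489 and 620. The mLN libraries were below the LP libraries in all 3 subsets, with falls of 11.4-fold (log2 fold change -3.51, SE 0.11), 4.64-fold (-2.22, SE 0.11) and 2.20-fold (-1.14, SE 0.10), each called. Brd2 covers 10.4% of its exon bases on the opposite strand.

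H2-DMb1 and H2-DMb2, which lie beside each other, both encode a DM beta chain. H2-DMb1 was at 1491, 1619 and 1579 CPM in LP CD103+ and at 74.5, 75.1 and 71.5 in mLN CD103+ DCs. It went from 976, 992 and 976 to 177, 182 and 187 CPM in DP DCs, and from 1134, 1232 and 1008 to 449, 312 and 443 in CD11b+ DCs. H2-DMb1 fell 21.2-fold in CD103+ (log2 fold change -4.41, SE 0.13, edgeR adjusted p = 1.2e-13), 5.38-fold in DP (-2.43, SE 0.12) and 2.80-fold in CD11b+ DCs (-1.49, SE 0.11), all called.

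H2-DMb2 had another pattern, since it was already low in LP CD103+ DCs. It was at 933, 856 and 832 CPM in LP CD11b+, 238, 242 and 227 in LP CD103+ and 1196, 1193 and 934 in LP DP DCs. In mLN it was at 935, 640 and 904 CPM in CD11b+, 98.7, 85.5 and 98.8 in CD103+ and 516, 506 and 536 in DP DCs. The CD11b+ libraries of the tissues overlapped. H2-DMb2 fell 2.50-fold in CD103+ (log2 fold change -1.32, SE 0.13, edgeR adjusted p = 1.2e-07) and 2.13-fold in DP DCs (-1.09, SE 0.13), and in CD11b+ DCs its log2 fold change was -0.08 (95% interval -0.34 to 0.18).

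The balance of the beta chain copies thus differed between subsets and tissues. H2-DMb1 held 56.2% of the reads of both copies in LP CD11b+, 86.9% in LP CD103+ and 47.1% in LP DP DCs, and 32.7%, 43.9% and 26.0% in the mLN groups in the same order. The longest coding transcripts of the copies are 95.5% identical over 1058 aligned bases, and 19.1% of the 75-base windows of H2-DMb1 transcripts also occur in H2-DMb2, so that the split of reads between them is uncertain. Summed, the copies were at 1999 CPM in LP CD11b+, 1798 in LP CD103+ and 2089 in LP DP DCs, and LP CD103+ did not pass the test against LP CD11b+ (log2 fold change -0.15, SE 0.11, edgeR adjusted p = 0.32). In mLN the sum was at 1227, 168 and 701 CPM in the same order. The sum fell in CD103+ (log2 fold change -3.42, SE 0.12) and DP DCs (-1.57, SE 0.12), and in CD11b+ DCs its log2 fold change of -0.70 (SE 0.11) was under the limit on fold change.

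**Figure D3:**
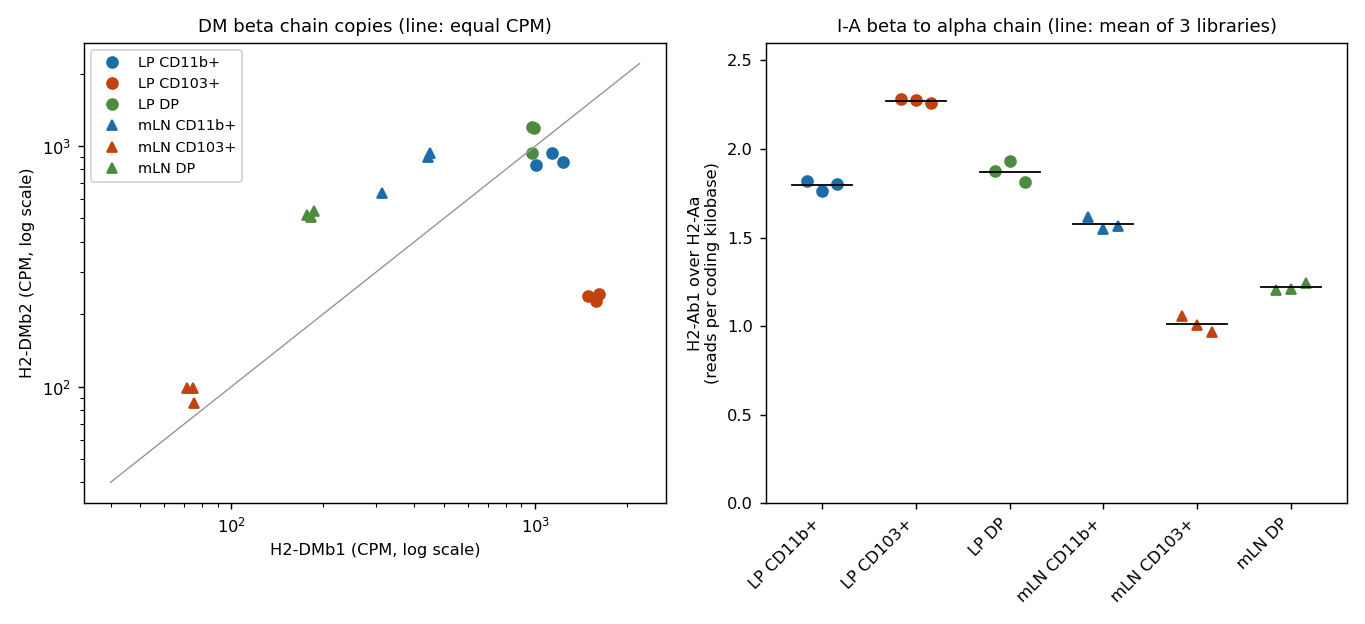
Left, H2-DMb2 against H2-DMb1 in each library, in CPM on log scales, with a line where they are equal; the LP CD103+ libraries stand apart at 1491 to 1619 CPM of H2-DMb1 and 227 to 242 CPM of H2-DMb2. Right, the ratio of H2-Ab1 to H2-Aa per coding kilobase in each library, with a line at the group mean, which is 2.27 in LP CD103+ and 1.01 in mLN CD103+ DCs.

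The DO chains, partners in the inhibitor of DM, were both called lower in CD103+ and DP DCs and neither was called in CD11b+ DCs. H2-Ob, the beta chain, was at 399, 355 and 295 CPM in LP CD11b+, 469, 447 and 470 in LP CD103+ and 521, 491 and 472 in LP DP DCs. In mLN it was at 281, 198 and 247 CPM in CD11b+, 49.2, 38.7 and 40.8 in CD103+ and 47.9, 59.1 and 63.0 in DP DCs. The mLN CD103+ and DP libraries overlapped and were both far below CD11b+. H2-Ob fell 10.8-fold in CD103+ (log2 fold change -3.43, SE 0.15, edgeR adjusted p = 6.4e-12) and 8.73-fold in DP DCs (-3.13, SE 0.15, adjusted p = 2.5e-11). In CD11b+ DCs its log2 fold change was -0.53 (SE 0.13, adjusted p = 0.0050), under the limit on fold change.

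H2-Oa, the alpha chain, was at 273, 261 and 206 CPM in LP CD11b+ and 301, 211 and 246 in mLN CD11b+ DCs, and these groups overlapped (log2 fold change 0.04, 95% interval -0.22 to 0.29). It fell 3.77-fold in CD103+ DCs, from 151, 162 and 147 to 44.9, 35.5 and 42.0 CPM (-1.91, SE 0.13), and 2.79-fold in DP DCs, from 388, 384 and 347 to 134, 135 and 132 (-1.48, SE 0.12), both called. B cells also transcribe the DO chains, and the 9 B cell genes summed to 173 to 247 CPM in mLN CD11b+, 59.8 to 73.2 in mLN DP and 40.3 to 53.1 in mLN CD103+ libraries. Their part in the DO levels was not tested. BC051537, an antisense transcript, covers 22.8% of the exon bases of H2-Oa.

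The summed RPKM of the DM chains over that of the DO chains was 6.53 ± 0.593 in LP CD11b+, 7.48 ± 0.271 in LP CD103+ and 4.52 ± 0.105 in LP DP DCs. In mLN the ratio was 3.95 ± 0.352, 3.60 ± 0.294 and 4.66 ± 0.139 in the same order. It was lower in every mLN than in every LP library for CD11b+ and CD103+ DCs, and overlapped for DP. Per coding length the LP order of CD11b+ and CD103+ turned round, to 6.01 and 5.65, and the mLN DP value of 5.29 lay above the 4.24 of LP DP.

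Whether the tissue effect differed between the subsets was tested directly. It did for all 10 members (edgeR F test, adjusted p under 0.01), as it did for 31.5% of all genes tested. The effect was more negative in CD103+ than in CD11b+ DCs for 10 members, against 13.2% of genes, by 0.70 log2 units for Cd74 (SE 0.16) to 3.65 for Ciita (SE 0.25). It was more negative in DP than in CD11b+ DCs for 6 members, against 9.13% of genes, with H2-Ob at the far end (difference -2.59, SE 0.19). The 4 that did not pass were H2-Aa (difference 0.08, SE 0.13), H2-Eb1 (0.11, SE 0.14), Cd74 (0.09, SE 0.16) and H2-Ab1 (-0.36, SE 0.14, adjusted p = 0.061). The effect was more negative in CD103+ than in DP DCs for 7 members, against 6.28% of genes, and H2-DMb2 (difference -0.23, SE 0.18), H2-Oa (-0.43, SE 0.17) and H2-Ob (-0.30, SE 0.19) did not pass. The CD103+ and DP effects thus differed for the classical chains, H2-DMa, H2-DMb1, Cd74 and Ciita.

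Within LP the members called between subsets were H2-DMb2 and H2-Oa. Against CD11b+ DCs, 1 member was called in CD103+ DCs, H2-DMb2, which was 3.71-fold lower (log2 fold change -1.89, SE 0.13, edgeR adjusted p = 6.0e-09), where 10.6% of genes were called lower. H2-Oa (log2 fold change -0.68, SE 0.12, adjusted p = 0.00029) and H2-DMb1 (0.47, SE 0.11, adjusted p = 0.0025) passed on p there but not on fold change. No member was called in DP against CD11b+ DCs, where 4.81% of genes were called in either direction, and H2-Oa alone had an adjusted p under 0.01 (log2 fold change 0.60, SE 0.12, adjusted p = 0.0032). Against CD103+ DCs, 2 members were called higher in DP, H2-DMb2 (4.70-fold) and H2-Oa (2.43-fold), where 8.10% of genes were, and H2-DMb1 again passed on p alone (log2 fold change -0.67, SE 0.11, adjusted p = 0.00013). Ciita gave log2 fold changes of 0.35 (95% interval -0.01 to 0.71) for CD103+ against CD11b+ and 0.13 (-0.23 to 0.48) for DP against CD11b+ DCs. None of the 3 LP comparisons passed on the sum of the DMb copies, and the part of the split of reads between them in the calls of H2-DMb2 was not tested.

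Within mLN the CD103+ DCs stood apart. Against CD11b+ DCs, 9 members were called lower, where 15.6% of genes were, and Cd74, the exception, had a log2 fold change of -0.88 (SE 0.11, edgeR adjusted p = 4.2e-06). The largest differences were of Ciita (9.84-fold lower), H2-DMb2 (8.76-fold) and H2-Oa (6.20-fold). Against CD103+ DCs, 9 members were called higher in DP, where 4.69% of genes were, and H2-Ob was the exception (log2 fold change 0.40, SE 0.14, adjusted p = 0.045). H2-DMb2 was 5.50-fold, Ciita 5.16-fold and H2-Ab1 3.62-fold higher there. DP against CD11b+ DCs gave 3 calls, all lower, where 9.82% of genes were called lower. These were H2-Ob (4.27-fold), H2-DMb1 (2.20-fold) and H2-DMa (2.05-fold). The classical chains gave log2 fold changes of 0.14 (H2-Aa), -0.23 (H2-Ab1) and 0.14 (H2-Eb1) with an adjusted p of 0.063 or more, and under scaling by total counts those of H2-Aa and H2-Eb1 turned negative. Replicate 2 of mLN CD11b+ was the lowest of its group for all 10 members, by a mean of 0.27 log2 units below the group mean. Its T cell genes summed to 1084 CPM, beside 890 and 816 in the other libraries of the group, and its B cell genes to 173 CPM, beside 244 and 247, and their part in this was not tested. Without it 5 members were called lower in DP against CD11b+ DCs, with H2-Oa (log2 fold change -1.06) and Ciita (-1.09) added, and under total counts 6 were. Ciita was also called there without mLN DP replicate 3 (-1.07), and H2-DMa was not without mLN CD11b+ replicate 1 (-0.94). Cd74 was called lower in CD103+ against CD11b+ DCs of mLN without mLN CD11b+ replicate 2 (-1.04) and under total counts (-1.31).

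Ordered by mean level, mLN CD103+ DCs were last for every member, and the order of the other groups differed between members. For H2-Aa, H2-Eb1 and Cd74 the other 5 groups ran from LP DP at the top to mLN CD11b+, and no neighbours in that run passed the test (edgeR, adjusted p under 0.01, which 7.61% to 53.8% of all genes did between any 2 groups). Only the last step did, 2.72-fold for H2-Aa, 3.06-fold for H2-Eb1 and 1.84-fold for Cd74. Groups farther apart in the run did pass. For each of these genes mLN was below LP in CD11b+ and in DP DCs (edgeR adjusted p of 0.0015 or less). For H2-Ab1, H2-DMa and H2-Ob the 3 LP groups came first without neighbours that passed, followed by mLN CD11b+, mLN DP and mLN CD103+. The step from LP to mLN passed for all 3 of them. The step from mLN CD11b+ to DP passed for H2-DMa and H2-Ob but not H2-Ab1, and the step from DP to mLN CD103+ for H2-Ab1 and H2-DMa but not H2-Ob. Ciita had this order too, but its step from LP CD11b+ to mLN CD11b+ did not pass. H2-DMb1 passed at 4 of 5 steps, from LP CD103+ at the top. H2-DMb2 and H2-Oa did not order by tissue, since mLN CD11b+ DCs stood above LP CD103+ DCs for both.

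Of 26 other genes of the pathway, listed by role, 4 were called higher and 2 lower in mLN CD11b+ DCs, 13 and 3 in CD103+ and 8 and 3 in DP DCs, where 10.3% and 4.93%, 19.8% and 15.1%, and 18.6% and 13.6% of all genes were. The 7 factors of the promoter complex on which Ciita docks had medians near that of all genes in each comparison (0.05, 0.04 and 0.07 in CD11b+, CD103+ and DP DCs). In CD103+ DCs 2 of them rose, the NF-Y subunit Nfya (log2 fold change 1.61, SE 0.14) and the RFX subunit Rfxank (1.40, SE 0.14), and 1 fell, the RFX subunit Rfxap (-1.25, SE 0.10). In DP DCs Rfxank alone was called (1.17, SE 0.14), and in CD11b+ DCs none was.

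**Figure D4:**
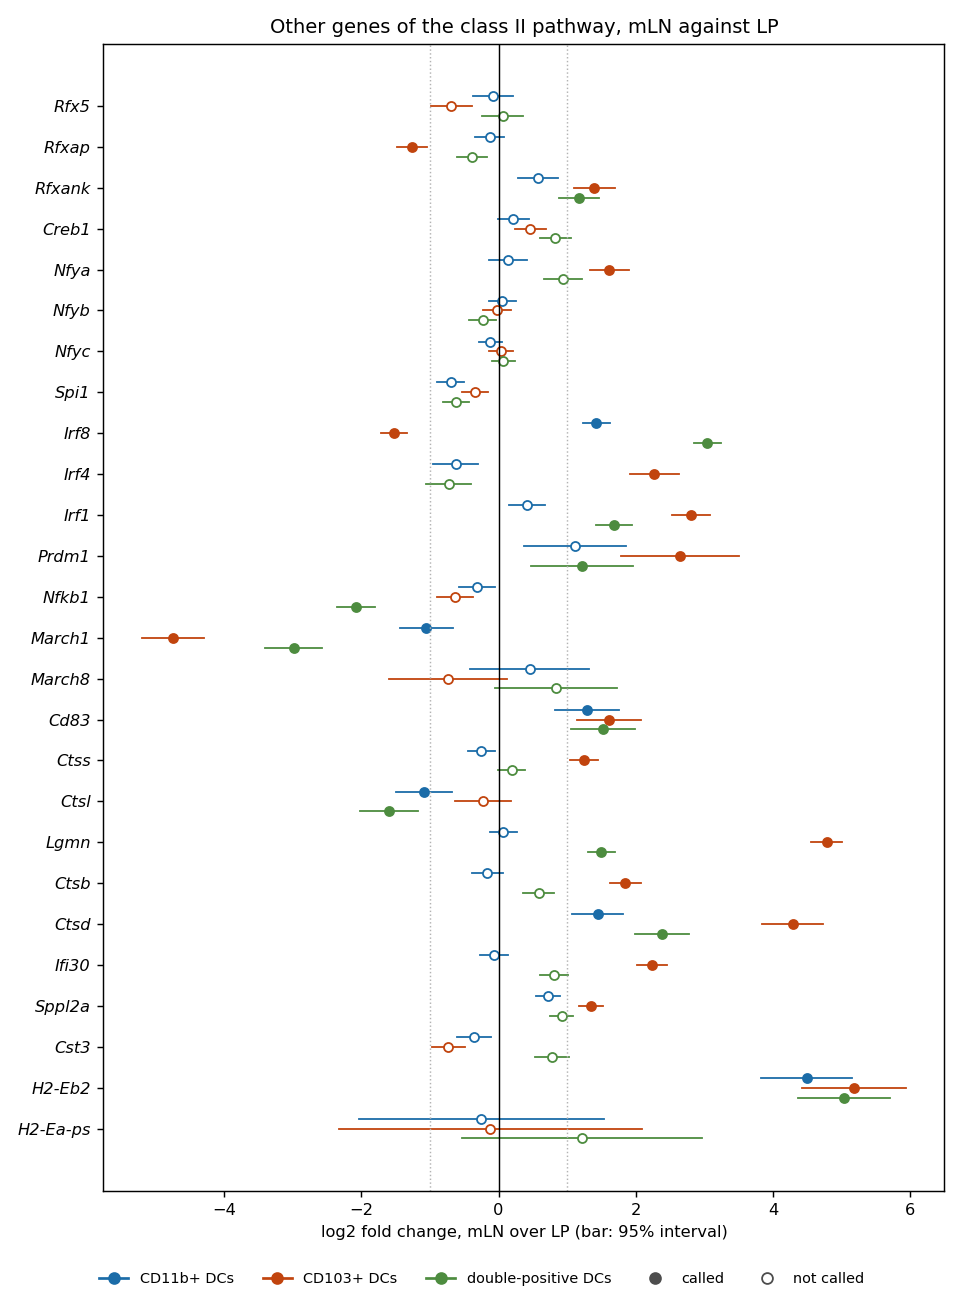
Fitted log2 fold change of mLN over LP for 26 other genes of the class II pathway in the 3 subsets, with bars for the 95% interval, filled points for calls and dotted lines at a 2-fold change. March1 reaches -4.75 in CD103+ DCs, while H2-Eb2 lies at 4.49 or more in every subset.

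Genes known to act on Ciita went both ways. Irf8, a DC transcription factor, rose in CD11b+ (log2 fold change 1.43, SE 0.09) and DP DCs (3.04, SE 0.10) and fell in CD103+ DCs (-1.53, SE 0.09), where it went from 4438, 4966 and 4538 to 1634, 1655 and 1553 CPM. Irf1, a factor of the interferon response, rose in CD103+ (2.80, SE 0.13) and DP DCs (1.68, SE 0.12), and so did Prdm1, a repressor of Ciita in plasma cells (2.64, SE 0.41, and 1.22, SE 0.35). Prdm1 was at 5.96 to 9.82 CPM in mLN CD103+ and 49.6 to 53.1 in mLN DP DCs. In CD11b+ DCs its log2 fold change of 1.12 (SE 0.35) did not pass (edgeR adjusted p = 0.018). Irf4 rose in CD103+ DCs (2.27, SE 0.17). In CD11b+ and DP DCs Irf4 was lower in mLN (-0.62, SE 0.16, and -0.73, SE 0.16). These values were under the limit on fold change (edgeR adjusted p = 0.0045 and 0.00071). The part of these factors in the level of Ciita was not tested. In DP DCs Nfkb1 was called lower (-2.08), and it is named here after its values were seen.

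March1, a ubiquitin ligase that sends class II to degradation, fell in all 3 subsets. It was at 237, 207 and 273 CPM in LP CD103+ and at 11.8, 6.95 and 7.88 in mLN CD103+ DCs (log2 fold change -4.75, SE 0.22, edgeR adjusted p = 1.0e-11). In DP DCs it went from 119, 120 and 126 to 13.2, 15.3 and 17.7 CPM (-2.98, SE 0.20), and in CD11b+ DCs from 141, 136 and 155 to 83.5, 49.9 and 75.7 (-1.05, SE 0.18). Cd83, a surface protein that opposes March1, rose in all 3, with log2 fold changes of 1.29 (SE 0.22) in CD11b+, 1.61 (SE 0.22) in CD103+ and 1.52 (SE 0.22) in DP DCs. March8, a related ligase, was not called in any subset. The 15 DC maturation genes, a separate list, summed to 1264 to 1435 CPM in LP CD11b+ and 5405 to 7671 in mLN CD11b+ libraries. The sums were 1592 to 1998 and 32676 to 33816 in CD103+, and 1738 to 2476 and 25842 to 28277 in DP libraries. Ccr7 (mean 11330 CPM) and Fscn1 (7638) weighed most in mLN CD103+ DCs. Of the 14 tested, 11, 12 and 12 were called higher and 0, 1 and 1 lower in CD11b+, CD103+ and DP DCs. Of all genes, 10.3%, 19.8% and 18.6% were called higher and 4.93%, 15.1% and 13.6% lower. Mean Cd86 went from 557 to 148 CPM in CD103+ and mean Cd80 from 36.5 to 17.4 in DP DCs. The part of this list in the class II levels was not tested.

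The 8 genes of invariant chain proteolysis and antigen processing included 6 called higher in CD103+ DCs and none called lower. Of all genes, 19.8% were called higher and 15.1% lower there. The median log2 fold change of the 8 genes was 1.60, beside 0.04 over all genes. Lgmn, an asparaginyl endopeptidase, went from 25.2, 25.1 and 25.1 to 654, 704 and 715 CPM (log2 fold change 4.78, SE 0.11), and Ctsd, an aspartic protease, from 3.25, 3.48 and 3.87 to 66.9, 71.5 and 68.3 (4.29, SE 0.21). Ifi30, a lysosomal reductase (2.23, SE 0.10), and Ctsb, a cysteine protease (1.85, SE 0.11), rose as well. The other calls, named after their values were seen, were Ctss and Sppl2a, which cut the invariant chain (1.25 and 1.35). Cst3, an inhibitor of cysteine proteases that is also named afterwards, had a log2 fold change of -0.73 (SE 0.12, edgeR adjusted p = 3.5e-05) in CD103+ DCs, under the limit on fold change. Lgmn (2.83-fold) and Ctsd (5.20-fold) rose in DP DCs and Ctsd (2.72-fold) in CD11b+ DCs, while Ctsl, also named afterwards, fell in both (3.03-fold and 2.13-fold).

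H2-Eb2, whose promoter letters are shown above, moved against its neighbours in the locus. It was at 3.98, 2.05 and 6.44 CPM in LP CD11b+, 0.954, 0.645 and 1.43 in LP CD103+ and 4.43, 5.01 and 7.38 in LP DP DCs. In mLN it was at 89.9, 91.0 and 103 CPM in CD11b+, 27.2, 42.2 and 35.2 in CD103+ and 177, 167 and 207 in DP DCs. Every mLN library was above every LP library. The log2 fold changes were 4.49 (SE 0.31), 5.18 (SE 0.36) and 5.03 (SE 0.32) in CD11b+, CD103+ and DP DCs, all called, and the test of a difference between subsets did not pass (edgeR F test, adjusted p = 0.38). Its transcript shares no 75-base window with those of H2-Eb1, and the aligned parts are 78.8% identical. On the RPKM scale it reached 54.2 in mLN DP DCs, beside 4478 for H2-Eb1.

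The genes most like Ciita over the 18 libraries, by Pearson's r of log2 CPM among 8663 genes with a mean of at least 10 CPM, were Asb2 (0.980), Prss30 (0.980), Nadk (0.977), Lrrc25 (0.976) and Pld4 (0.973). Those most like H2-Ab1 were Prss30 (0.988), Pld4 (0.985), Acaa2 (0.975), Asb2 (0.974) and Tmem231 (0.973). H2-Ob was most like Cln8 (0.994), Tm6sf1 (0.993), Hps3 (0.991), Coq2 (0.990) and Hcls1 (0.989), and shared none of these with the other lists. The libraries form 6 groups and share their scaling, so these values describe the order of the groups.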

How the data were processed

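Per the labels, RNA of sorted DCs was amplified with Smart-seq v4 and sequenced as 75-base reads, with FastQC 0.11.7, STAR 2.6 and GRCm38 in the submitters' processing notes. The authors deposited raw counts of reads per Ensembl gene, without normalization. No source used here says how these libraries were counted. For the DC libraries made alongside, the study's methods give unique alignments and counting without regard to strand, which loses reads that fit near-identical genes and merges antisense pairs.

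Counts were scaled by TMM and tested with edgeR 4.0.16 (R 4.3.3) in a single quasi-likelihood fit with 6 group means over the 17074 genes kept by filterByExpr. CPM used TMM library sizes, the share of counts the raw totals. A call needed an adjusted p under 0.01 and a fold change over 2. SEs came from the F statistic. Positions and lengths were from GENCODE vM21. Replicates 1 to 3 are separate libraries (chi-square per gene of 14.9 or more between replicates), but nothing says that they are separate animals, so that p-values measure the spread between these libraries. Same-numbered libraries of LP CD103+ and LP CD11b+ deviated together (every r over 0.1, 0.133 to 0.212). So did those of LP CD103+ and LP DP (0.114 to 0.176), while LP CD11b+ and LP DP ranged from 0.066 to 0.233. Of the 18 libraries, 16 correlated best with their own number. This is a pairing seen in the data, and the main fit had no term for it. Pathway genes were named by a rule of at most 4 a list, those with the largest tissue effects, and the report says which others were named after their values were seen. A further gene was taken out of the pathway lists, their counts included, and is not reported here. The members and lists were chosen with earlier results of these data known.

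Alternatives were DESeq2 1.42.0 and its size factors, total counts, totals without the members, no filter and a stricter filter, an adjusted p under 0.05, the compared libraries alone, a replicate block, the DMb copies summed, coding lengths, and libraries left out.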

Additional observations from a re-analysis of the deposited data

Results flagged for a closer look

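The tissue effect of each of the 10 members differed between the 3 subsets by the F test of that difference (edgeR, adjusted over all genes tested). The adjusted p was 4.2e-07 for H2-Aa, 6.3e-09 for H2-Ab1, 6.3e-07 for H2-Eb1, 1.3e-08 for H2-DMa and 2.9e-09 for H2-DMb1. It was 5.2e-05 for H2-DMb2, 4.1e-07 for H2-Oa, 1.2e-08 for H2-Ob, 0.00091 for Cd74 and 2.3e-08 for Ciita. The F test passed for 31.5% of all genes tested. Groups of 3 were too small to test whether a single library stood apart, and mLN CD11b+ replicate 2 is described above without such a test.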

How the results depend on the processing

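The counts of members called lay within 1.5 times the reported ones under DESeq2, its size factors, library totals without the members, both filters, the looser adjusted p, the compared libraries alone and the replicate block. With the H2-DMb copies summed, 1 member was called in mLN against LP CD11b+ DCs, 0 in CD103+ against CD11b+ DCs of LP and 1 in DP against CD103+ DCs of LP. DP against CD11b+ DCs in mLN gave 6 calls under total counts and 2 to 5 with a library left out, the highest without mLN CD11b+ replicate 2. Members took 6.17%, 2.44% and 6.42% of TMM library sizes in mLN CD11b+, CD103+ and DP DCs. Per coding length the DM to DO ratio was 5.65 in LP CD103+, 4.24 in LP DP and 5.29 in mLN DP DCs.

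Total counts moved the median of all genes to 0.17, -0.18 and -0.10 in CD11b+, CD103+ and DP DCs. The sign turned for 20 of 1512 alternative log2 fold changes, all of values that were not called. Under total counts these were H2-DMb2 (0.048) in mLN against LP CD11b+, H2-DMa (-0.045) in LP CD103+ against CD11b+, H2-Eb1 (-0.035) and H2-DMa (-0.019) in LP DP against CD11b+, and H2-Aa (-0.22), H2-Eb1 (-0.23) and Cd74 (-0.14) in mLN DP against CD11b+ DCs. H2-DMa in LP DP against CD103+ DCs was at -0.0069 with totals without the members and -1.5e-05 with no filter. With a library left out, mLN against LP CD11b+ ranged from -0.18 to 0.074 for H2-DMb2 and -0.11 to 0.15 for H2-Oa. H2-DMa ranged from -0.019 to 0.069 in LP CD103+ against CD11b+, -0.0039 to 0.084 in LP DP against CD11b+ and -0.023 to 0.050 in LP DP against CD103+. H2-Eb1 ranged from -0.015 to 0.054 in LP DP against CD11b+ and -0.0020 to 0.19 in mLN DP against CD11b+, and H2-Ab1 from -0.059 to 0.011 in LP DP against CD103+. The cause was not tested.

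With the replicate number as a block, mLN against LP gave 2, 10 and 7 members called in CD11b+, CD103+ and DP DCs, and no member's call changed. Within mLN same-numbered libraries correlated at 0.020 to 0.113, and 16 of 18 libraries correlated best with their own number. Depth limits what can be said of H2-Ea-ps, at no more than 0.937 CPM.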
